A study of Mus with 9 samples.

Results

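The genes described here encode the postsynaptic scaffolds of the Dlg, Shank and Homer families, 10 genes in all (Dlg1, Dlg2, Dlg3, Dlg4, Shank1, Shank2, Shank3, Homer1, Homer2 and Homer3). They were taken by exact gene symbol from the authors' deposited tables of a mouse hippocampus microarray study. Each gene had 1 probe set, the group of probes that reports 1 gene, so the 10 members make up 10 of 22206 probe sets. No other probe set named a member among several symbols.

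Scaffold proteins hold the receptors, adhesion proteins and enzymes of an excitatory synapse in place under the postsynaptic membrane, in a protein mesh called the postsynaptic density. The Dlg proteins lie closest to the membrane and bind the tails of glutamate receptors and ion channels, the SAPAP proteins (genes Dlgap1 to Dlgap4) link them to the Shank proteins below, and the Homer proteins tie Shank to metabotropic glutamate receptors and to calcium channels of internal stores. In the hippocampus this mesh helps set how many receptors a synapse holds, and it is remodelled during synaptic plasticity.

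The study's tables cover 3 groups with 3 arrays each, 9 in all. SAMP8, the senescence-accelerated mouse prone strain, was compared with SAMR1, the senescence-resistant strain kept as the control of normal aging, and with SAMP8 mice given trigonelline (TG), a plant alkaloid, by mouth at 5 mg/kg for 30 days. The SAMP8 mice were 16-week-old males by the methods, which state no age for SAMR1. That age is given ahead of acclimatization, treatment and testing, and no age is stated for when the hippocampus was taken. After the treatment period all 3 groups went through 8 days of behavioral testing in the water maze, with TG continued in the treated group. The vehicle of both untreated groups is saline in the sample records and water in the methods. SAMR1 is a separate strain, so SAMP8 vs SAMR1 compares strains. The records name 3 arrays per group where the series text speaks of duplicate samples, and their free-text description speaks of a macrophage cell line, although tissue and titles name hippocampus and these strains. Markers of hippocampal excitatory neurons included Slc17a7 (a vesicular glutamate transporter), with group averages between 18.02 and 18.12, and Neurod6, between 14.85 and 14.88. Prox1 and Wfs1 of the same list differed more between groups, from 11 to 11.85 and from 10.75 to 11.23.

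All values are group averages of log2 signal as the authors deposited them, rounded to 0.01. No value per mouse was used here, so no spread, interval or test can be attached to any difference below, and whether groups overlap for a gene is unknown. A difference of log2 averages of 1 is a 2-fold difference in signal. Differences are set against the fold limit of the study's methods, 1.1 on the linear scale (0.138 on the log2 scale), used without its p-value criterion, and against a stricter limit of 1.5. Levels are compared between groups within a gene and never between genes, because probes differ in how strongly they bind.

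Dlg4 encodes PSD-95, the best known Dlg protein of mature excitatory synapses, which anchors NMDA receptors and, through auxiliary subunits, AMPA receptors. It lies on chromosome 11 from 70017203 to 70045535 in GRCm38.p6. Its average log2 signal was 17.03 in SAMP8, against 16.56 in SAMR1 and 16.47 with TG. SAMP8 thus stood highest and the treated group lowest. The difference was 0.47 between SAMP8 and SAMR1, or 1.39-fold higher, and -0.56 between TG-treated and untreated SAMP8, or 1.47-fold lower. Among all probe sets, the TG difference of Dlg4 lay at the percentile 4.3, below that of every other scaffold gene. Among the 1110 probe sets of like brightness it lay at 4.

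Dlg3 encodes SAP102, a close relative of PSD-95 that traffics NMDA receptors and is prominent in the young brain. It lies on chromosome X from 100767411 to 100818410. The averages were 13.10 in SAMR1, 13.48 in SAMP8 and 12.99 with TG, so the order of the groups was that of Dlg4. SAMP8 was higher than SAMR1 by 0.38 (1.3-fold), and the treated group stood at -0.49 from SAMP8 (1.4-fold lower).

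Dlg2 encodes PSD-93, which shares most partners with PSD-95, and spans chromosome 7 from 90476188 to 92449246. It was listed at 12.79 in SAMR1, 13.36 in SAMP8 and 13.07 with TG. This was the widest range among the 10 scaffold genes, 0.57 on the log2 scale. The whole of it lay between SAMR1 and SAMP8, where the fold was 1.48. The percentile of this difference was 94.7 among all probe sets and 95.5 among the 1110 of like brightness. With TG the average was 1.22-fold lower than in untreated SAMP8, a difference of -0.29, and it stood 0.28 above SAMR1.

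Dlg1 encodes SAP97, which takes part in AMPA receptor trafficking in neurons. SAP97 is also found outside the postsynaptic density and in nonneuronal cells, where it takes part in cell polarity. Its gene lies on chromosome 16 from 31663443 to 31873356. Averages were 11.53 in SAMR1, 11.34 in SAMP8 and 11.52 with TG. In contrast to the other 3 Dlg genes, the lowest average of Dlg1 was that of SAMP8, at -0.19 from SAMR1, and the treated group was 0.18 higher than untreated SAMP8. Both differences lay inside the middle 50% of all probe sets, at the percentiles 26.8 and 72.6, but among the 1110 probe sets of like brightness they lay at 11.9 and 78.3.

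**Figure D1:**
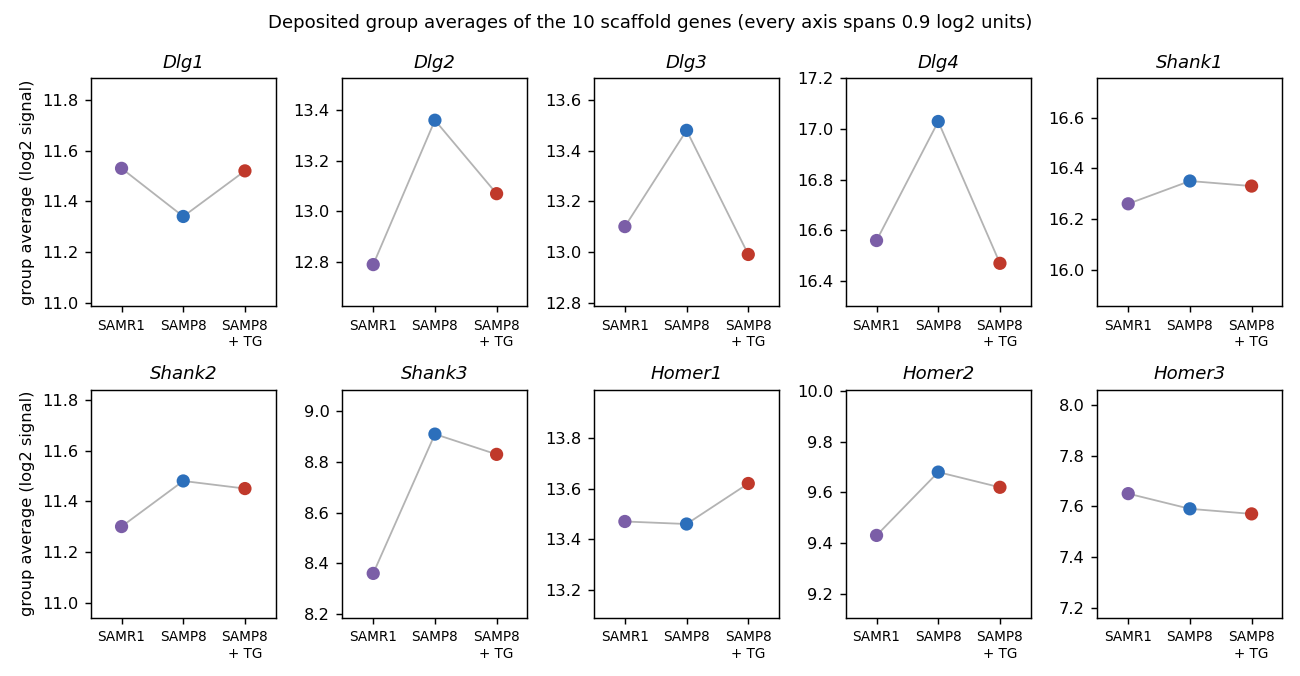
Deposited group averages of log2 signal for the 10 scaffold genes in the 3 groups (SAMP8 + TG is the treated group), 1 panel per gene, with grey lines joining the 3 averages. Each vertical axis spans 0.9 log2 units at its own level, and there are no error bars because the tables hold averages alone. Dlg2, Dlg3, Dlg4 and Shank3 span 0.49 to 0.57 between their highest and lowest group, and Shank1 and Homer3 less than 0.1.

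The Shank proteins are the large master scaffolds of the density. Their PDZ domain binds SAPAP, a proline-rich stretch binds Homer and the actin-binding protein cortactin, and mutations of SHANK3 in people underlie Phelan-McDermid syndrome. Shank3 (chromosome 15 from 89493013 to 89560261) was listed at 8.36 in SAMR1, 8.91 in SAMP8 and 8.83 with TG. The difference between the strains, 0.55 or 1.46-fold, lay at the percentile 94.2 of all probe sets, but at 88.3 among those of like brightness. The difference with TG was -0.08. The treated group therefore stood 0.47 above SAMR1, the widest gap of any scaffold gene between these groups.

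Shank2 (chromosome 7 from 143978077 to 144426043) stood at 11.30 in SAMR1, 11.48 in SAMP8 and 11.45 with TG. SAMP8 was 1.13-fold higher than SAMR1, and TG-treated and untreated SAMP8 differed by -0.03. For Shank1 (chromosome 7 from 44308916 to 44360094) the averages were 16.26, 16.35 and 16.33 in the same order. Its differences of 0.09 and -0.02 lay inside the 1.1-fold limit, although the first came to 0.14, past it, when each group was centred on its median over all probe sets. In each of the 3 Shank genes SAMP8 had the highest and SAMR1 the lowest deposited average. No Shank gene passed the limit with TG, which 63.4% of all probe sets did in either direction. After subtraction of the median of probe sets of like brightness, the 2 differences were 0 and 0.03 for Shank1. They were 0.06 and 0.04 for Shank2, so SAMP8 no longer stood highest in these genes, and 0.41 and -0.02 for Shank3.

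Homer proteins bind short proline-rich motifs through an EVH1 domain at one end and pair through a coiled coil at the other. The short form Homer1a, an immediate early product of Homer1, lacks the coiled coil and uncouples the mesh when neurons are active. Homer1 (chromosome 13 from 93303757 to 93405129) was listed at 13.47 in SAMR1, 13.46 in SAMP8 and 13.62 with TG. The strains differed by -0.01, and the treated group was 0.16 above untreated SAMP8, a 1.12-fold difference just past the limit, which it no longer passed (0.13) when each group was centred on its median over all probe sets. RefSeq lists 5 transcripts for Homer1, and because 1 probe set gives 1 value per gene, the short and long forms were not told apart.

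Homer2 (chromosome 7 from 81600481 to 81706925) stood at 9.43 in SAMR1, 9.68 in SAMP8 and 9.62 with TG. Its strain difference of 0.25 was 1.19-fold, and its difference with TG was -0.06. Homer3 (chromosome 8 from 70282880 to 70294361), the family member best known from cerebellar Purkinje cells, had the narrowest range of the 10 genes. Its averages were 7.65, 7.59 and 7.57, with differences of -0.06 and -0.02.

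Across the scaffolds, 6 of 10 genes were higher in SAMP8 than in SAMR1 by more than 1.1-fold (Dlg2, Dlg3, Dlg4, Shank2, Shank3 and Homer2), where 33% of all probe sets were. One gene, Dlg1, was lower past the limit, against 32.5% of all probe sets. Shank1, Homer1 and Homer3 lay within it. The median difference of the 10 genes was 0.215 against 0 for all probe sets, and by family the medians were 0.42 for Dlg, 0.18 for Shank and -0.01 for Homer, the last at 0.04 when each group was centred on its median. No scaffold gene reached 1.5-fold, a limit that 11.1% of all probe sets passed in either direction, and Dlg2 came nearest to it.

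Between TG-treated and untreated SAMP8, 3 of 10 scaffold genes were lower by more than 1.1-fold (Dlg2, Dlg3 and Dlg4), as were 31% of all probe sets. Dlg1 and Homer1, 2 of the 10, were higher past the limit, against 32.4% of all probe sets (1 gene was when each group was centred on its median). The share of scaffold genes lower with TG was thus close to that of all probe sets, and the median of the 10 genes was -0.045 against 0.01. The family medians were -0.39 for Dlg, -0.03 for Shank and -0.02 for Homer, and after centring within classes of average signal they were -0.34, 0.03 and 0.03. Past 1.5-fold there was no scaffold gene, against 8.21% of all probe sets, and Dlg4 was nearest.

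**Figure D2:**
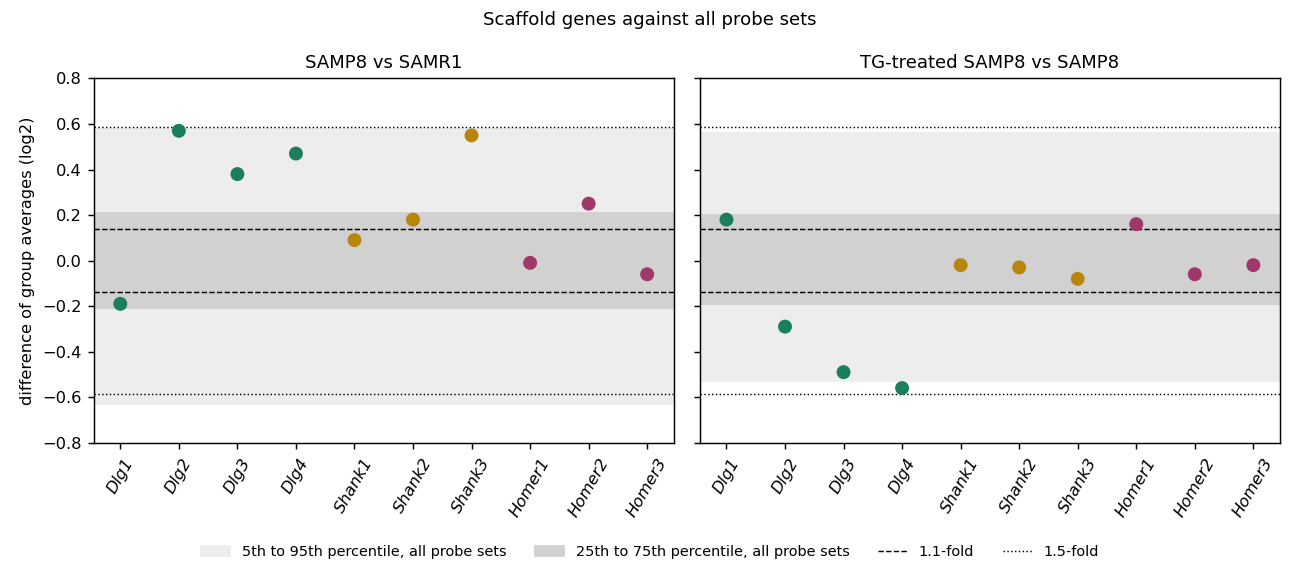
Difference of group averages on the log2 scale for each scaffold gene (green Dlg, gold Shank, purple Homer), SAMP8 minus SAMR1 on the left and TG-treated minus untreated SAMP8 on the right. Grey bands hold the middle 50% and 90% of all 22206 probe sets, dashed lines mark 1.1-fold and dotted lines 1.5-fold. On the left Dlg2 (0.57) and Shank3 (0.55) lie near the upper edge of the wide band, and on the right Dlg4 (-0.56) lies just past its lower edge at -0.53.

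Both comparisons contain the same SAMP8 arrays, with opposite sign, so a SAMP8 average that is high by itself makes a gene higher in the first comparison and lower in the second. The gap between TG-treated SAMP8 and SAMR1 does not contain them. For the Dlg genes it was -0.01 (Dlg1), 0.28 (Dlg2), -0.11 (Dlg3) and -0.09 (Dlg4). For the Shank genes it was 0.07 (Shank1), 0.15 (Shank2) and 0.47 (Shank3), and for the Homer genes 0.15 (Homer1), 0.19 (Homer2) and -0.08 (Homer3).

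The differences also moved with the brightness of the probe sets. When all probe sets were ranked by average signal into 20 classes of equal size, the scaffold genes fell into classes 14 to 20, and Dlg2, Dlg3, Dlg4, Shank1 and Homer1 into the brightest. Over these 7 classes the median difference was 0.12 between SAMP8 and SAMR1, and 48.1% of 7772 probe sets were higher and 18.5% lower past 1.1-fold. With TG the median over the same classes was -0.06, with 26.1% higher and 40.8% lower. After subtraction of its class median, the strain difference was 0.48 for Dlg2, 0.41 for Shank3, 0.38 for Dlg4 and 0.29 for Dlg3. Those of Shank2 and Homer2 came to 0.06 and 0.11, inside the limit, and Homer3 passed it downward at -0.16, which left 4 of 10 genes higher and 2 lower, against 31.6% and 32.3% of all probe sets under the same centring. Dlg1 stood at -0.31 after this step, in place of -0.19. With TG the centred values were -0.51 for Dlg4, -0.44 for Dlg3, -0.24 for Dlg2, 0.25 for Dlg1 and 0.21 for Homer1. The part of this brightness trend in the scaffold differences was not tested further.

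**Figure D3:**
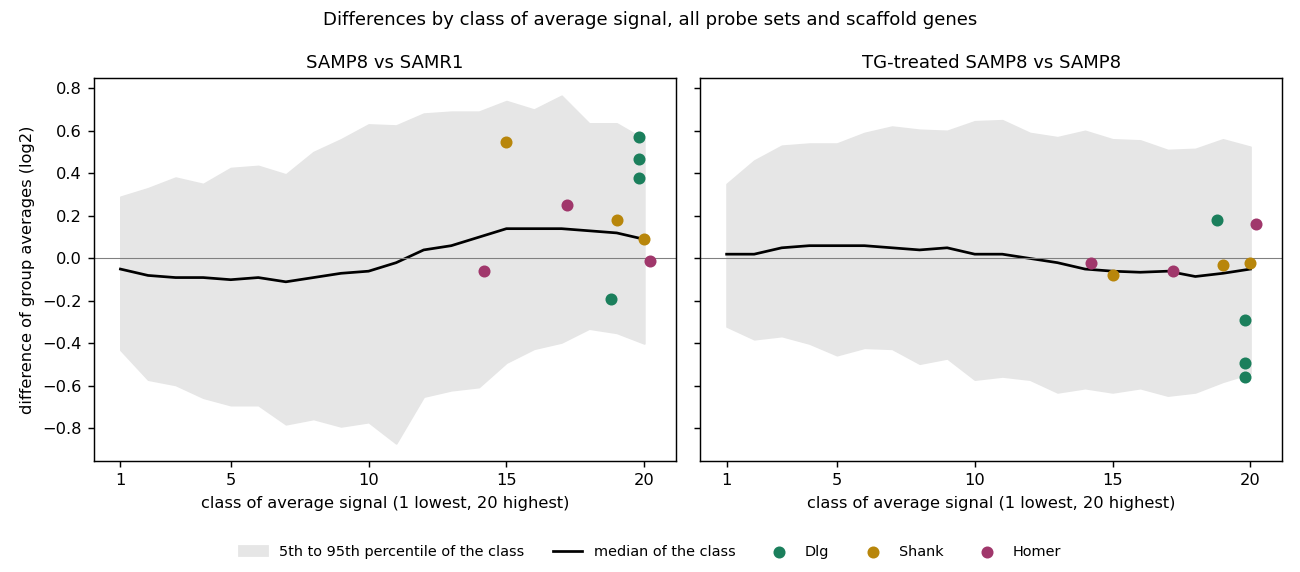
Differences of group averages (log2) by class of average signal, from 1 (lowest) to 20 (highest), SAMP8 minus SAMR1 on the left and TG-treated minus untreated SAMP8 on the right. The line is the median and the grey area the middle 90% of each class of about 1110 probe sets, and points are the scaffold genes by family. The median of class 15 is 0.14 on the left and -0.06 on the right. In class 20, Dlg2 on the left (0.57, edge at 0.56) and Dlg4 on the right (-0.56, edge at -0.54) lie just past the grey area. The other points of Dlg2, Dlg3 and Dlg4 lie inside it.

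The counts of partner genes that follow are to be read against the shares of all probe sets past 1.1-fold, 33% higher and 32.5% lower between the strains and 32.4% and 31% with TG, and against those of the bright classes given above. Among the links between Dlg and Shank, Dlgap1 stood apart from the 3 other SAPAP genes with TG. It was listed at 15.83 in SAMR1, 15.65 in SAMP8 and 15.19 with TG, differences of -0.18 and -0.46. Dlgap4 had the highest strain difference of the 4 (0.22) and Dlgap3 the highest difference with TG (0.06). Of the 4 genes, 2 were higher and 1 lower past 1.1-fold in SAMP8 than in SAMR1, and 0 were higher and 1 lower with TG.

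The receptors and auxiliary subunits that the scaffolds bind numbered 15, of which 9 were higher and 1 lower past the limit in SAMP8 than in SAMR1 (median 0.19), and 2 higher and 10 lower with TG (median -0.27). After centring within classes of average signal the medians of this list were 0.08 and -0.22. Cacng3, an auxiliary subunit of AMPA receptors that binds PSD-95, was highest between the strains at 0.74, and Cacng4 of the same family lowest at -0.35. With TG the lowest value was that of the NMDA receptor subunit Grin2b, -0.48, and the highest that of Cacng4, 0.34. Grm5, the metabotropic receptor held by Homer, was listed at 12.05 in SAMR1, 12.39 in SAMP8 and 11.97 with TG. Homer1, whose long forms bind this receptor, differed between the strains by -0.01.

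Of 13 signalling proteins of the density, 10 were higher and 0 lower in SAMP8 than in SAMR1, and 3 were higher and 5 lower with TG. The medians were 0.20 and -0.05, and 0.11 and 0.01 after centring within classes of average signal. Camk2b, a subunit of the calcium-calmodulin kinase that is recruited to the density, had the highest strain difference of this list (0.82) and the lowest with TG (-1.14), with averages of 17.68, 18.50 and 17.36. Arc, an activity-induced gene, was highest with TG at 0.49, and Cnksr2 had the lowest strain difference at -0.03. Camk2a was listed at 19.93 in all 3 groups, which is the highest average of any probe set in each group. At the top of the scale, this equal value does not tell whether Camk2a differed between the groups. Among 10 further partners of Homer and Shank, Itpr1, the calcium release channel that Homer binds, was highest between the strains (0.56) and Trpc1 lowest (-0.18), and with TG Sharpin was highest (0.42) and Abi2, a Shank-binding regulator of actin, lowest (-0.69). Past the limit, 4 of these 10 genes were higher and 1 lower in SAMP8, and 2 higher and 4 lower with TG. Their medians were 0.08 and -0.07, and -0.025 and -0.0025 after the same centring.

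The 15 other MAGUK and PDZ scaffolds had medians of 0.17 between the strains and -0.17 with TG, with 8 higher and 0 lower in SAMP8 and 4 higher and 10 lower with TG. After centring within classes of average signal their medians were 0.05 and -0.13. Magi1 held the extreme of both comparisons, 0.55 and -0.59. Cask was lowest between the strains at -0.11 and Mpp2 highest with TG at 0.32. Over the 57 genes of these 5 lists, 33 were higher and 3 lower past the limit in SAMP8 (median 0.17), and 11 higher and 30 lower with TG (median -0.15). In the 7 bright classes 48.1% of probe sets were higher and 18.5% lower between the strains, and 26.1% and 40.8% with TG. After centring within classes of signal the medians of the 57 genes were 0.05 and -0.09. Only these 57 genes were searched for those nearest to Dlg2, by the Euclidean distance of the pair of differences over the 3 group averages. They were the AMPA receptor subunit Gria1 (0.14), Cacng3 (0.17) and the AMPA receptor subunit Gria3 (0.17). This likeness was not particular to partners of the scaffolds. The astrocyte marker Slc1a3 (0.62 and -0.38) and the endothelial marker Flt1 (0.66 and -0.22) lay nearer still to Dlg2 (0.57 and -0.29).

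**Figure D4:**
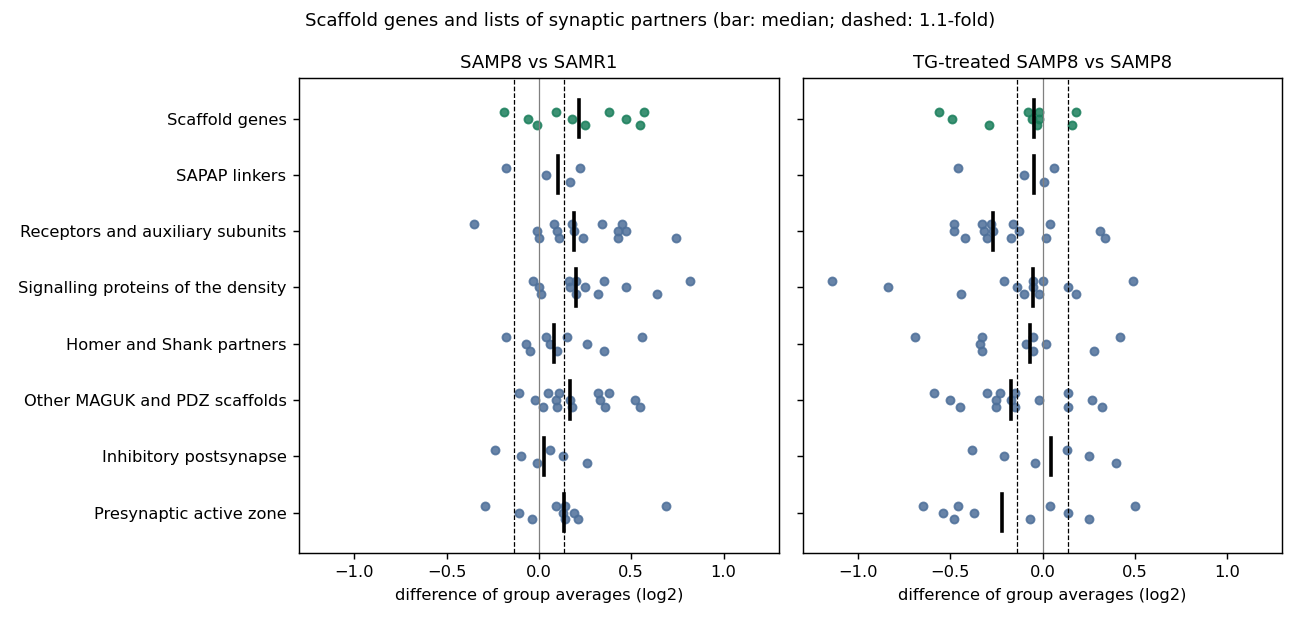
Difference of group averages (log2) for the 10 scaffold genes (green) and 7 lists of synaptic partners (blue), 1 point per gene, SAMP8 minus SAMR1 on the left and TG-treated minus untreated SAMP8 on the right. Bars are medians and dashed lines mark 1.1-fold in each direction. The receptors and auxiliary subunits have medians of 0.19 and -0.27, and the scaffolds 0.215 and -0.045.

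Outside the excitatory density, the 6 genes of the inhibitory postsynapse had medians of 0.025 and 0.045, with 1 higher and 1 lower in SAMP8 and 2 higher and 2 lower with TG. Nlgn2 was lowest between the strains (-0.24) and Insyn1 highest with TG (0.40). The 10 genes of the presynaptic active zone had medians of 0.135 and -0.22, with 5 higher and 1 lower in SAMP8 and 3 higher and 5 lower with TG. After centring within classes of average signal, the medians of the active zone were 0.025 and -0.1475, and those of the inhibitory postsynapse -0.03 and 0.0775. Rims2 (0.69) and Erc1 (-0.29) were the extremes between the strains, and Ppfia3 (0.50) and Ppfia2 (-0.65) with TG.

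Cell type markers were read beside these values, because in RNA of whole tissue fewer cells of a type and less RNA per cell cannot be told apart. The 5 general neuronal markers had a median of 0 between SAMP8 and SAMR1 and 0.05 with TG, while their mean level was 15.13 in SAMR1, 15.08 in SAMP8 and 15.13 with TG. They did not go one way, and the strain median is the value of Syt1, listed at 19.70 in every group, near the top of the scale. Map2 stood at -0.66 and Snap25 at 0.31 between the strains. Of the hippocampal excitatory markers, 4 of 5 were measured (all but Zbtb20), with medians of 0.27 and -0.245. Prox1, which marks dentate granule cells, was listed at 11.26, 11.85 and 11, and Wfs1, which marks CA1 pyramidal cells, at 10.79, 11.23 and 10.75, whereas Slc17a7 and Neurod6 differed by at most 0.1 between groups. Dlg2, Dlg3 and Dlg4 thus stood highest in the same group as Prox1 and Wfs1. This was not particular to them, since Shank1, Shank2, Shank3 and Homer2 also stood highest in SAMP8, as did the markers Snap25 and Slc17a7. Slc17a7 did so by the rounding step alone, at 18.12 against 18.11 with TG. Nor was it particular to neurons. The nonneuronal markers Gfap, Aif1 and Flt1 stood highest in SAMP8 too, while others, such as Mbp and Mag, stood lowest there. The part of these markers in the scaffold differences was not tested.

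Nonneuronal lists also differed between groups, and their part in the scaffold differences was not tested. Astrocyte markers had medians of 0.17 between the strains and -0.11 with TG, with Gfap highest at 0.95 and Slc1a3 lowest with TG at -0.38. The medians were -0.21 and 0.15 for oligodendrocytes, 0.09 and -0.31 for microglia, and 0.37 and -0.195 for endothelium. They were -0.555 and 0.15 for meninges and fibroblasts and 0.52 and -0.015 for choroid plexus. Several of these lists did not go one way. With TG, Ttr stood at 0.72 and Kl at -0.79 in choroid plexus, where 2 genes were higher and 2 lower past 1.1-fold. In meninges and fibroblasts Lum stood at 0.46 and Dcn at -0.77 with TG, with 2 genes higher and 1 lower. Between the strains, Aif1 stood at 1.51 and Cx3cr1 at -0.31 in microglia, with 2 higher and 1 lower. For smooth muscle the medians were 0.41 and -0.76, over 3 genes that did not go one way. Acta2 stood at 5.52 in SAMR1, 7.71 in SAMP8 and 5.54 with TG, whereas Tagln stood at 4.74, 3.91 and 4.62.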

How the data were processed

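Hippocampal RNA of 9 mice was hybridized to Clariom S Mouse arrays. The authors used the SST-RMA algorithm of TAC (version 4.0.1 by the series text, a later one by the methods) for normalization, and the deposited tables, 1 per comparison, hold group averages as log2 signal on annotation of the mm10 build. The same tables hold the authors' own fold changes, p-values and adjusted p-values, which were left out. The SAMP8 averages were identical in both tables, so all 3 groups were read on 1 scale.

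For each of 22206 probe sets, differences of the log2 averages were computed and counted past 1.1-fold and 1.5-fold. Alternatives were limits of 1.2 and 1.5, centring each group on its median, centring within 20 classes of average signal, and leaving out the dimmest 25% of probe sets. The code was tested on simulated data with known differences. From each list of partners, the genes with the highest and lowest difference in each comparison are named, and for Dlg2, the member with the widest range, the 3 list genes of nearest pattern, whereas Grm5, Camk2a and the cell type markers named one by one were chosen after their values were seen. The members and lists were chosen with earlier results of these data known. Some genes chosen by this rule are left out of the text. Insyn1 and Insyn2a were matched through older symbols. Positions and transcript counts are from RefSeq (GRCm38.p6). Array number limits the precision of every average, and no array values were used. Python 3.11.15, numpy 2.4.6, pandas 2.3.3 and matplotlib 3.10.9 were used.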

Additional observations from a re-analysis of the deposited data

How the results depend on the processing

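The number of scaffold genes past the limit depended on the limit chosen. At 1.2-fold it was 4 between SAMP8 and SAMR1 and 3 between TG-treated and untreated SAMP8, in place of 7 and 5 at 1.1-fold, and at 1.5-fold it was 0 in both. Of all probe sets, 40.8% and 38.2% passed 1.2-fold in these comparisons and 65.5% and 63.4% passed 1.1-fold. Centring within classes of average signal gave a median strain difference of 0.085 in place of 0.215. The cause of the brightness trend was not tested. Under the same centring the median with TG was 0.015 in place of -0.045. Centring each group on its median moved each gene by at most 0.05, which put Shank1 past 1.1-fold between the strains (0.14) and Homer1 inside it with TG (0.13). The largest move was 0.05 with group medians and 0.14 within classes, smaller than any scaffold difference past 1.1-fold, so none could change sign. Inside the limit, the strain difference of Homer1 went from -0.01 to 0.04 with group medians. Within classes, the TG differences of Shank1, Shank2 and Homer3 went from -0.02, -0.03 and -0.02 to 0.03, 0.04 and 0.03. All 10 genes lay above the lowest 25% of signal, so that filter left 7 and 5. Matching several symbols and choosing among probe sets could not change a value, since each scaffold gene had 1 probe set of its own. No paired analysis was possible because the tables hold group averages, and for the same reason no array could be left out in turn.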
